A study of Rattus norvegicus with 6 samples.

Results

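Histone genes were followed in cultured amniotic fluid cells of rats with a preeclampsia model and of control rats. They were taken by gene symbol, as every row of the deposited expression table whose symbol starts with a histone name. These names were Hist followed by a cluster number and h, H1f, H2a with c, f, x, z, j, p or b, H2b with c, f or u, H3c, H3f, H4c or H4f. Membership did not depend on a row's values, but the rule was chosen with earlier results of these data known. The rule found 49 of 22085 genes. By symbol, 35 are replication-dependent histones, 9 are variant histones and 4 are germ cell forms (H1f6, H1f8, H2ac1 and H3f4). The remaining member, H4f3, carries a symbol for histone H4 but is described in the table as the H1.3 linker histone, so it was counted as a member and placed in no class.

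The 3 control libraries came from amniotic fluid cells of control pregnancies and the 3 preeclampsia libraries from cells of a rat preeclampsia model. In both groups the fluid was collected on embryonic day 18.5, and the cells, labelled as mesenchymal stem cells, were grown in serum-containing medium and harvested at passage 4. Strain, sex, maternal age and the way the model was produced are not given in the sources used here, nor whether a library pools several fetuses. The labels number the libraries of each group, and name them as pregnancies in the control group only. They do not say that the libraries came from separate mothers, so the p-values measure the spread between these libraries. Total counts ran from 48402185 to 59193961 per library. Of the 7 fixed mesenchymal markers, Col1a1, Cxcl12, Vim, Thy1 and Pdgfrb were at 133 FPKM or more in all 6 libraries (FPKM is a fragment count scaled to transcript length and library depth). The other two varied more widely, Nt5e from 6.02 to 104 FPKM and Eng from 3.72 to 44.5 FPKM. The macrophage and blood markers were also present, with a summed level over 7 genes of 18.2 to 124 FPKM in the control and 21.0 to 322 FPKM in the preeclampsia libraries.

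Histones pack DNA into nucleosomes, each a core of H2A, H2B, H3 and H4 that linker histone H1 closes from outside. Replication-dependent histone genes lie in clusters, are mostly without introns and are transcribed in S phase, when new DNA must be packed. Their mRNAs end in a stem-loop bound by the protein Slbp instead of a poly(A) tail. Variant histones such as H3.3 and H2A.Z come from genes outside the clusters, whose mRNAs carry a poly(A) tail and are made through the whole cell cycle. The libraries were made from RNA enriched with oligo(dT), which binds poly(A), so the replication-dependent values below are levels of what that enrichment kept. They do not measure all histone mRNA in the cells, and the part of the enrichment in the differences was not tested.

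The promoters of the members whose data the results turn on are shown to let the letters before each gene be seen beside its level. They are RefSeq sequences of the assembly GRCr8, 5′ to 3′ on the strand of the gene, and end at the base before the annotated start. Hist2h2aa3 (chr2:186497021-186497270, plus strand) and Hist1h2bq (chr17:41869342-41869591, minus strand) were lower in value in the preeclampsia libraries, and H2az2 (chr14:85526069-85526318, minus strand) is the variant whose preeclampsia libraries all lay above the control libraries. The stretch from H2ac20 to Hist2h2be (chr2:186469227-186469451, plus strand) is shared by a pair of genes that point away from each other, with H2ac20 to its left. Capitals mark the CCAAT box, the TATA box with the letters TATAAA, and the octamer ATTTGCAT, each on either strand.
Hist2h2aa3: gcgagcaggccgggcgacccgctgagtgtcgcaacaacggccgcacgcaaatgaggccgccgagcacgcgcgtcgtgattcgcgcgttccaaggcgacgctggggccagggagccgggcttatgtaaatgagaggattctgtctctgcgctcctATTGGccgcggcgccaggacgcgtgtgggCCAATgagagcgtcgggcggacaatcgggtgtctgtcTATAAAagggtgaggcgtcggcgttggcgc
Hist1h2bq: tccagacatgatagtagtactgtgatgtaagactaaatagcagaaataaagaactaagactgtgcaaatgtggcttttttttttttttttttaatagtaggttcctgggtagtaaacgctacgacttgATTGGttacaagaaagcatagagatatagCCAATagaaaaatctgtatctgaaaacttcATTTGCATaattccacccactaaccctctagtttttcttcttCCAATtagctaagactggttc
H2ac20 to Hist2h2be: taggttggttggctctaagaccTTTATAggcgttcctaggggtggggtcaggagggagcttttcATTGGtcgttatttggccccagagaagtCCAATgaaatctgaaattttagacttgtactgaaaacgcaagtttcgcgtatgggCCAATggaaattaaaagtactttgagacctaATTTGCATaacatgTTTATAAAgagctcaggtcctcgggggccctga
H2az2: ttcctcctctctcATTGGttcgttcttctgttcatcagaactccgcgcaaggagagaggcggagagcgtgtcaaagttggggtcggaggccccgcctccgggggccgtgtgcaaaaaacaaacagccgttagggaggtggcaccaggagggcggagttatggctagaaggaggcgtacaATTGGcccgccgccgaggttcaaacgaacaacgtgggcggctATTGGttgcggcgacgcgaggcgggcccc

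These letters recur over the members. RefSeq promoters of GRCr8 were matched by Entrez gene identifier for 45 of the 49 members, and the 250 bases before each start were searched on both strands. CCAAT, which reads ATTGG on the other strand and is the box bound by NF-Y, was found in 29 of 32 replication-dependent promoters (90.6%), in 6 of 8 variant promoters (75%) and in 34.3% of all 27457 promoters. TATAAA, which reads TTTATA on the other strand, was found in 19 of 32 (59.4%), in 2 of 8 (25%) and in 13.1% of all. ATTTGCAT, which reads ATGCAAAT on the other strand and is the octamer bound by Oct-1, was found in 10 of 32 (31.2%), in 1 of 8 (12.5%) and in 1.5% of all. No motif is contained in another, but TATAAA and its reverse complement can overlap each other, as they do before Hist2h2be. Among the replication-dependent promoters with the octamer, 6 belonged to H2A genes and 4 to H2B genes. These promoters are not all separate sequences. Genes that point away from each other, such as H2ac20 and Hist2h2be, share bases, so the same site can be counted for both. Hist2h2aa2 and Hist2h2aa3 share an unbroken run of 271 bases in windows of 300 bases. A match is a description of the letters and not of a bound site.

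Most replication-dependent histones were at low levels. Of the 26 tested, 23 were lower in value in the preeclampsia libraries (48.3% of all genes tested were). Of the 9 variants, 7 were higher in value, as were 8151 of all 15776 genes tested. Without the first preeclampsia library it was 6 of 9 variants, with a median log2 fold change of 0.0071. No single member passed the test over all genes. Of the 49 members, 36 had enough counts to be tested: 26 of 35 replication-dependent genes, 9 of 9 variants, 0 of 4 germ cell forms, and H4f3. With edgeR's quasi-likelihood test and Benjamini-Hochberg adjustment, 0 members were called at an adjusted p under 0.05, as were 0 of all 15776 genes tested (0%), where the smallest adjusted p was 0.228. At an unadjusted p under 0.05, 8 of the 26 replication-dependent genes were lower and 0 were higher in preeclampsia, against 5.06% and 4.13% of all genes tested. DESeq2, run as an alternative, called 350 genes (2.22%), among them 4 members, all lower in preeclampsia: Hist2h2aa2, Hist1h2bq, Hist2h2aa3 and H3c13, with adjusted p of 0.000165, 0.0158, 0.0187 and 0.0384. Over the other alternatives run, their adjusted p reached 0.759 for the first 3 and 0.785 for H3c13.

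The log2 fold change of preeclampsia over control was below 0 for 23 of the 26 replication-dependent genes tested, against 48.3% of all genes tested. Their median was -0.56, with a range of -2.08 to 1.32, beside a median of 0.01 over all genes. With no filter on low counts, 30 of all 35 were below 0, against 49.1% of all genes, with a median of -0.57. In FPKM, the groups did not overlap for 8 of the 26 with preeclampsia lower and for 1 with preeclampsia higher, against 8.32% and 6.15% of all genes tested. Genes of a histone family are close copies of each other, so these counts are not made of independent genes. In bulk samples such as these, fewer cells of a type and less RNA per cell cannot be told apart.

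The counts behind most of these values were small. In 28 members, 24 of them replication-dependent, the highest count in any library was under 50. The mean level of 23 replication-dependent genes was under 1 FPKM, and 4 of 35 reached 10 FPKM, against 7 of 9 variants. The median SE of the log2 fold change was 0.497 over the members tested and 0.263 over all genes. Among the 8 replication-dependent genes with a mean count of at least 50, a limit set after the data were seen, 8 of 8 were lower in value and 5 had an unadjusted p under 0.05, and their median was -1.16. At that limit the median over all genes was 0.01, with 6355 of 13182 genes lower in value and 734 of them at an unadjusted p under 0.05.

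Summed over the 35 genes, the replication-dependent level was 205, 284 and 298 FPKM in the control libraries and 136, 171 and 152 FPKM in the preeclampsia libraries. All 3 preeclampsia sums lay below the lowest control sum. The group means were 262 ± 50.1 and 153 ± 17.5 FPKM (SD, n = 3 each), a log2 ratio of -0.77. Summed over the 9 variants, the level was 493, 587 and 533 FPKM in control and 682, 538 and 577 FPKM in preeclampsia, and the groups overlapped. The means there were 538 ± 47.5 and 599 ± 74.3 FPKM (SD, n = 3 each), a log2 ratio of 0.16. Of the FPKM of both classes together, the replication-dependent genes made up 29.4%, 32.6% and 35.8% in control and 16.7%, 24.2% and 20.8% in preeclampsia, without overlap. No p was taken for these sums, and with 3 libraries against 3 an exact permutation test cannot go below 0.10.

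**Figure D1:**
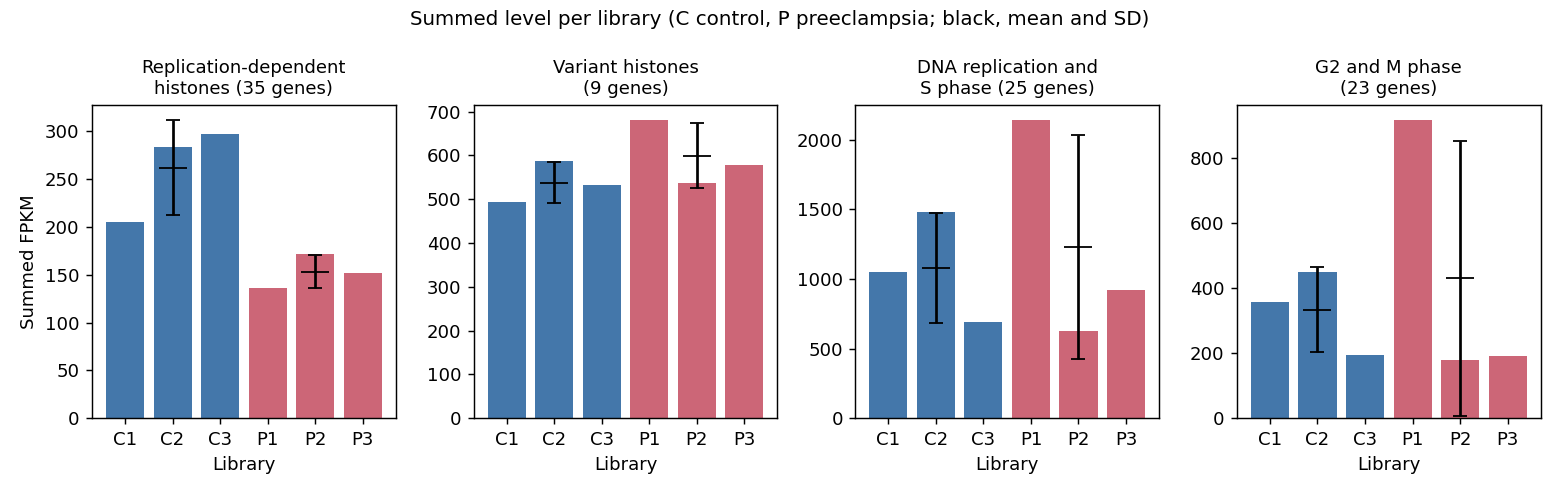
Summed FPKM per library (bars; C, control; P, preeclampsia) of the replication-dependent and variant histones and of the fixed lists for DNA replication and S phase and for G2 and M phase, with the mean and SD of each group in black. The replication-dependent bars of preeclampsia lie between 136 and 171 FPKM, below the control bars at 205 to 298 FPKM, while the first preeclampsia library has the tallest bar in each of the other panels.

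A few genes carried most of the replication-dependent level. H1f2, which encodes linker histone H1.2, held 35.6% of the class's FPKM over all libraries, and with Hist1h2bq 71.2%. Adding Hist1h4b, Hist3h2a and Hist2h2aa2 brought the share to 91.2%. Without H1f2 and Hist1h2bq, an alternative added after the data were seen, the summed level was 61.9, 74.9 and 80.8 FPKM in control and 53.7, 45.0 and 43.5 FPKM in preeclampsia. These groups still did not overlap, with a log2 ratio of -0.61.

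By family, the groups of summed replication-dependent FPKM did not overlap for H2A, H2B and H4, and overlapped for H1 and H3. H2B had the log2 ratio farthest from 0, -1.18, with 84.8, 115 and 136 FPKM in control and 37.5, 58.5 and 51.8 FPKM in preeclampsia. For H2A the sums were 29.0, 36.0 and 38.0 against 24.4, 21.0 and 17.8 FPKM, a log2 ratio of -0.70. For H4 they were 22.9, 28.0 and 28.8 against 19.0, 17.4 and 19.1 FPKM, a log2 ratio of -0.52, nearly all of it Hist1h4b. The H3 sums never passed 1.9 FPKM. All 11 tested H2A genes, 6 of 7 H2B genes, 3 of 3 H3 genes and the 1 H4 gene had a log2 fold change below 0, whereas the 4 H1 genes were split, 2 and 2.

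**Figure D2:**
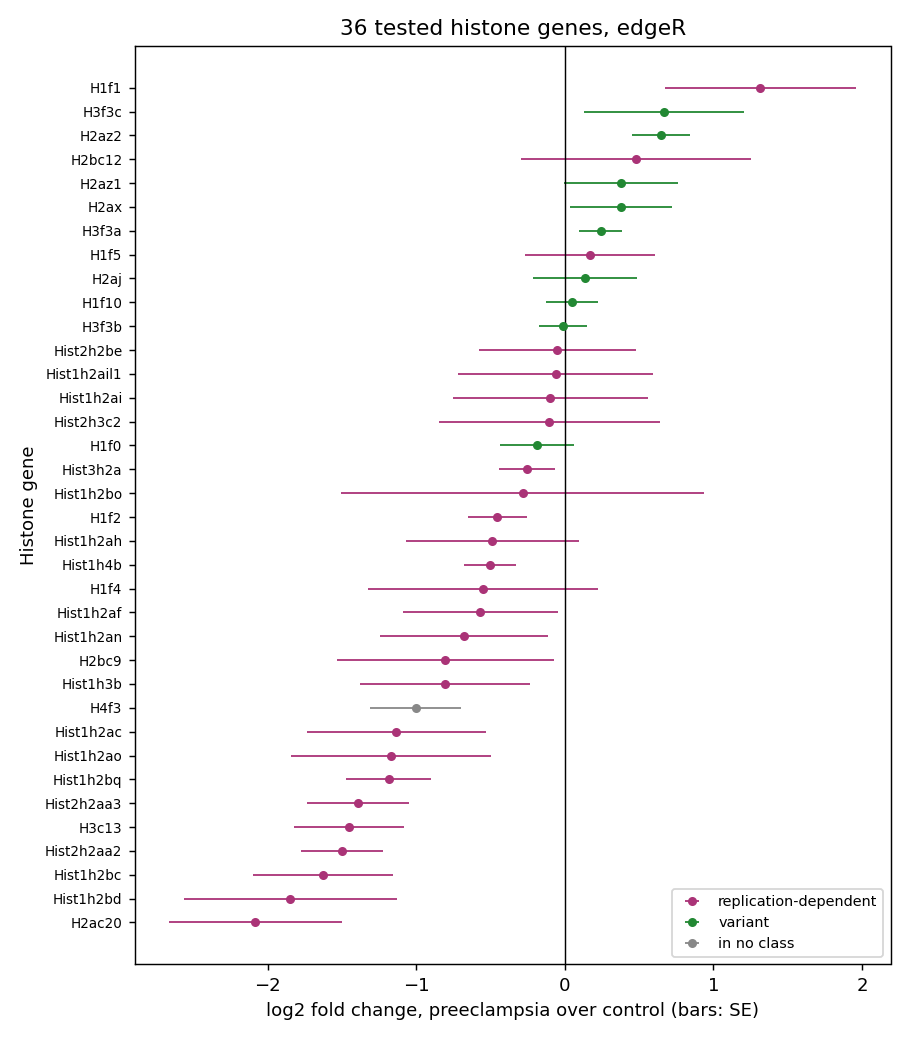
Log2 fold change of preeclampsia over control with its SE for each tested histone gene, ordered by that value and coloured by class. Of the replication-dependent genes, 23 of 26 lie below 0, down to -2.08, and of the variants 7 of 9 lie above 0, up to 0.67.

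Hist1h2bq encodes an H2B and was the most abundant core histone gene of the class. Its level was 77.7, 107 and 125 FPKM in control and 29.5, 55.1 and 48.3 FPKM in preeclampsia. Every preeclampsia library lay below every control library. The means were 103 ± 24.1 and 44.3 ± 13.2 FPKM (SD, n = 3 each), and the log2 fold change was -1.19 (SE 0.29, adjusted p = 0.431). Leaving out each library in turn gave -1.40 to -0.95. In the table the gene lies at chr17:41432100-41441487 on the minus strand, under sequence names that are those of mRatBN7.2, a span longer than a coding sequence of H2B needs.

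Hist2h2aa2 encodes an H2A and lies at chr2:183801369-183801987 on the minus strand. Its level was 7.11, 8.20 and 10.6 FPKM in control and 2.58, 3.26 and 3.08 FPKM in preeclampsia. The groups were far apart for their spread, at 8.64 ± 1.79 and 2.97 ± 0.352 FPKM (SD, n = 3 each). The log2 fold change was -1.50 (SE 0.28, adjusted p = 0.373), and -1.59 to -1.35 when each library was left out in turn.

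Hist2h2aa3, its neighbour at chr2:183808398-183808922 on the plus strand, was at 1.82, 2.47 and 3.39 FPKM in control and at 0.66, 1.11 and 1.07 FPKM in preeclampsia. These groups did not overlap either, and the log2 fold change was -1.39 (SE 0.34, adjusted p = 0.433). The RefSeq windows of this pair, from 250 bases before to 50 bases after the start, share an unbroken run of 271 bases. That run is mostly promoter, so it does not measure how alike the transcripts are, and sharing of reads between the pair in counting was not tested.

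Among the H2B genes of lower level, Hist1h2bc was at 3.06, 2.49 and 4.10 FPKM in control and 1.57, 0.63 and 0.86 FPKM in preeclampsia, without overlap. Its log2 fold change was -1.63 (SE 0.47, adjusted p = 0.458). Hist1h2bd was at 0.61, 1.89 and 1.68 FPKM in control and 0.61, 0.32 and 0.15 FPKM in preeclampsia, so that the first library of each group had the same level. The log2 fold change there was -1.85 (SE 0.71, adjusted p = 0.515).

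H3c13 encodes a replication-dependent H3 and was at 0.47, 0.84 and 0.78 FPKM in control and 0.31, 0.22 and 0.22 FPKM in preeclampsia. The groups did not overlap, and the log2 fold change was -1.46 (SE 0.37, adjusted p = 0.440). H4f3, the gene without a class, spans 26011 bases that overlap H3c13 on the same strand, so reads from there may be counted for either gene. It was at 0.60, 1.01 and 0.80 FPKM in control and 0.38, 0.31 and 0.48 FPKM in preeclampsia, with a log2 fold change of -1.01 (SE 0.31, adjusted p = 0.470).

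Hist1h4b, the H4 gene that was tested, was at 22.8, 27.9 and 28.6 FPKM in control and 18.9, 17.3 and 18.9 FPKM in preeclampsia. The distance was smaller than for the H2A and H2B genes above but the groups did not overlap, and the log2 fold change was -0.50 (SE 0.18, adjusted p = 0.478). It overlaps the H2A gene Hist1h2ac on the same strand. Hist1h2ac was at 1.43, 2.77 and 2.57 FPKM in control and 1.96, 0.44 and 0.68 FPKM in preeclampsia, overlapping, with a log2 fold change of -1.13 (SE 0.60, adjusted p = 0.645).

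H1f2 was at 65.3, 102 and 91.5 FPKM in control and at 53.3, 71.2 and 60.3 FPKM in preeclampsia. The groups overlapped, since the second preeclampsia library lay above the first control library. Its log2 fold change was -0.45 (SE 0.20, adjusted p = 0.567). Hist3h2a, an H2A gene in a separate small locus on chromosome 10, was at 14.2, 15.3 and 14.7 FPKM in control and 14.4, 12.2 and 10.1 FPKM in preeclampsia. That is a log2 fold change of -0.25 (SE 0.19, adjusted p = 0.758), the smallest distance from 0 among the 5 most abundant genes of the class.

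H1f5, which encodes linker histone H1.5, had a log2 fold change of 0.17 (SE 0.44). The H2A genes Hist1h2ail1 and Hist1h2an had log2 fold changes of -0.06 (SE 0.66) and -0.68 (SE 0.57), with adjusted p of 0.984 and 0.792 and overlapping groups. Besides H1f5, the replication-dependent genes tested with a log2 fold change above 0 were H1f1 and the H2B gene H2bc12, at 0.48 (SE 0.77), both named after their values were seen. H1f1 encodes linker histone H1.1. The counts of H1f1 were 8, 8 and 8 in control and 12, 40 and 12 in preeclampsia, and its log2 fold change was 1.32 (SE 0.64, adjusted p = 0.616). The second preeclampsia library held most of the preeclampsia reads.

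**Figure D3:**
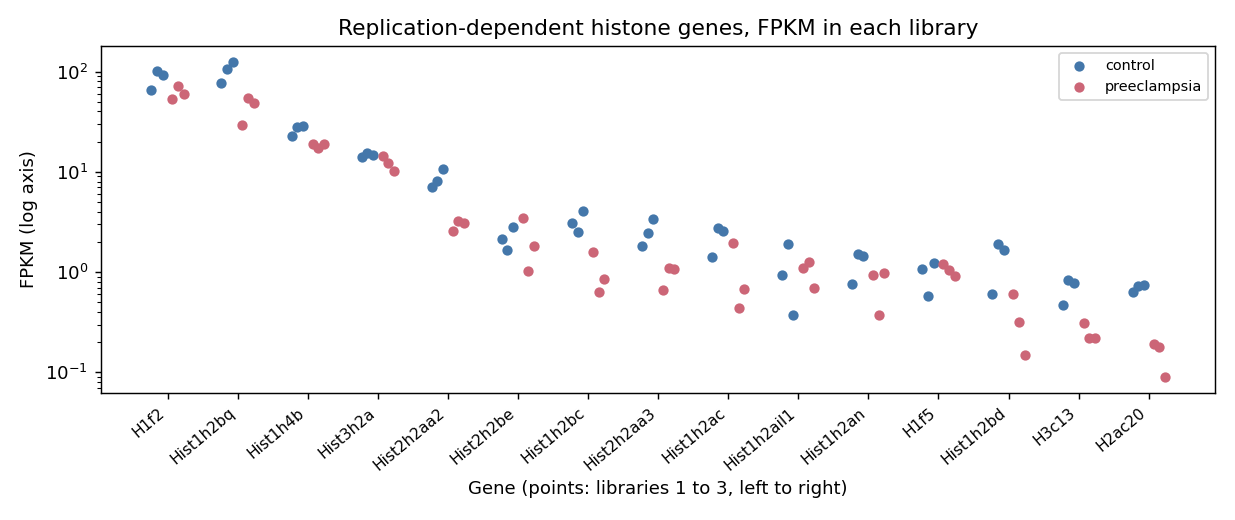
FPKM in each library (points, log axis) of the named replication-dependent histone genes, with libraries 1 to 3 of each group from left to right. Hist1h2bq, Hist2h2aa2, Hist2h2aa3, Hist1h2bc and H3c13 have all preeclampsia points below the control points, while Hist2h2be and Hist3h2a overlap.

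Neighbouring histone genes did not always have like values. H2ac20, an H2A gene, and Hist2h2be, an H2B gene, point away from each other across the stretch printed above, with 124 bases between them in the table. The counts of H2ac20 were 15, 17 and 18 in control and 5, 5 and 2 in preeclampsia. They did not overlap, and the log2 fold change was -2.08 (SE 0.58, adjusted p = 0.458). Hist2h2be was at 2.14, 1.65 and 2.82 FPKM in control and 3.50, 1.03 and 1.83 FPKM in preeclampsia, so that preeclampsia held both the highest and the lowest level. Its log2 fold change was -0.05 (SE 0.53, adjusted p = 0.984), and -0.57 to 0.27 when each library was left out in turn. The difference between the 2 genes was not tested, and H2ac20 had the lowest log2 fold change of all members tested. Other pairs that point away from each other were H2bc9 and Hist1h2ac, at -0.80 and -1.13, and Hist1h2bo and Hist1h2ai, at -0.28 and -0.10. In the fit with no filter, H1f1 and H3c1 were at 1.32 and 0.07, and H2bc12 and H2ac12 at 0.48 and -0.95. The printed stretch is 225 bases long in GRCr8. Counted from the start of Hist2h2be, its CCAAT boxes begin at -161, -133 and -78, and those at -161 and -133 lie nearer to H2ac20. The octamer begins at -47, toward Hist2h2be, and TATAAA letters stand near both ends.

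By position, 7 members lay within chr2:183779385-183837721, 14 within chr17:41171384-41571658 and 15 within chr17:42470593-42800345, taking members under 500000 bases apart as 1 locus. In the chromosome 2 locus all 5 tested genes had a log2 fold change below 0, with a median of -1.39. In the 2 chromosome 17 loci it was 9 of 10 and 9 of 11, with medians of -0.56 and -0.80. Replication-dependent genes whose span in the table was over 1000 bases numbered 12. Of these, 11 were tested and all 11 were below 0. Of the 15 tested with shorter spans, 12 were below 0. The span is not the length used in counting: Hist1h4b spans 4446 bases, and the length implied by its counts and FPKM was 319 bases. The median level was 1.88 FPKM for genes with longer spans and 0.428 FPKM for those with shorter spans.

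Genes with too few counts to be tested added little. H1f6, the testis linker histone H1t, had counts of 9, 12 and 15 in control and 0, 2 and 0 in preeclampsia. It lies in the first chromosome 17 locus. H1f8, the oocyte linker histone, had counts of 4, 6 and 0 in control and 0, 15 and 0 in preeclampsia, so that 3 of 6 libraries held any. Hist1h2bg had 5, 4 and 11 against 5, 6 and 1, and H2ac12 had 7, 10 and 8 against 5, 4 and 4. H2ac21, named after its values were seen, had 1, 4 and 6 against 0, 0 and 0. A count of 0 is within counting error of up to 3 counts if reads are counted singly, so no fold is given here. The fit with no filter did include these genes. With H2ac21 set to that bound, the median of that fit over the 35 replication-dependent genes was -0.57. H2ac21 lay below the median with or without the bound, so the median could not have moved. Of the 13 untested members, the mean count was lower in preeclampsia for 7, equal for 2 and higher for 4.

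The variants were higher in value in 7 of 9 cases (median log2 fold change 0.24), beside 8151 of all 15776 genes tested. In edgeR, 1 of 9 (H2az2) had an unadjusted p under 0.05, and 9.19% of all genes tested did. Without the first preeclampsia library, 6 of 9 were higher and the median was 0.0071. H3f3a and H3f3b, which encode H3.3, had the highest FPKM of the members in these oligo(dT)-enriched libraries. H3f3a was at 160, 149 and 203 FPKM in control and 201, 182 and 214 FPKM in preeclampsia, and the groups overlapped. Its log2 fold change was 0.24 (SE 0.14, adjusted p = 0.685). H3f3b was at 156, 228 and 167 FPKM against 181, 169 and 188 FPKM. That left a log2 fold change of -0.01 (SE 0.16, adjusted p = 0.988).

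H3f3c was at 29.7, 10.4 and 13.0 FPKM in control and 15.3, 26.8 and 41.8 FPKM in preeclampsia, with a log2 fold change of 0.67 (SE 0.54, adjusted p = 0.780). RefSeq lists this gene as a pseudogene, so its reads may be shared with H3f3a and H3f3b and its level is uncertain. Replication-dependent H3 genes made up 0.326%, 0.487% and 0.478% of all H3 FPKM in control and 0.174%, 0.253% and 0.297% in preeclampsia. The rest of the H3 level in each library came from the H3.3 genes.

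H2az1 and H2az2 encode the H2A.Z proteins, which mark nucleosomes at promoters. H2az1 was at 58.1, 78.1 and 60.2 FPKM in control and 144, 58.4 and 52.2 FPKM in preeclampsia, so that 1 library stood high and the other two lay within or below the control range. The log2 fold change was 0.38 (SE 0.38, adjusted p = 0.835), and -0.20 without the first preeclampsia library. H2az2 was at 3.99, 4.71 and 4.70 FPKM against 8.60, 6.75 and 5.40 FPKM. These groups did not overlap, with a log2 fold change of 0.65 (SE 0.19, adjusted p = 0.470), and 0.49 without the first preeclampsia library.

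H2ax encodes H2A.X, the histone phosphorylated beside DNA breaks, and its transcripts are known in both the stem-loop and the poly(A) form. It was at 35.7, 42.3 and 27.4 FPKM in control and 70.1, 38.4 and 28.1 FPKM in preeclampsia. The high value was again in the first preeclampsia library, and the log2 fold change of 0.38 (SE 0.34, adjusted p = 0.810) was -0.04 without it. H1f0, the linker histone H1.0 known from resting and differentiated cells, was at 36.1, 62.4 and 40.1 FPKM against 51.1, 36.7 and 32.2 FPKM. These groups overlapped, and its log2 fold change was -0.19 (SE 0.25, adjusted p = 0.869). H2aj and H1f10 had log2 fold changes of 0.14 (SE 0.35) and 0.05 (SE 0.18), with overlapping groups.

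**Figure D4:**
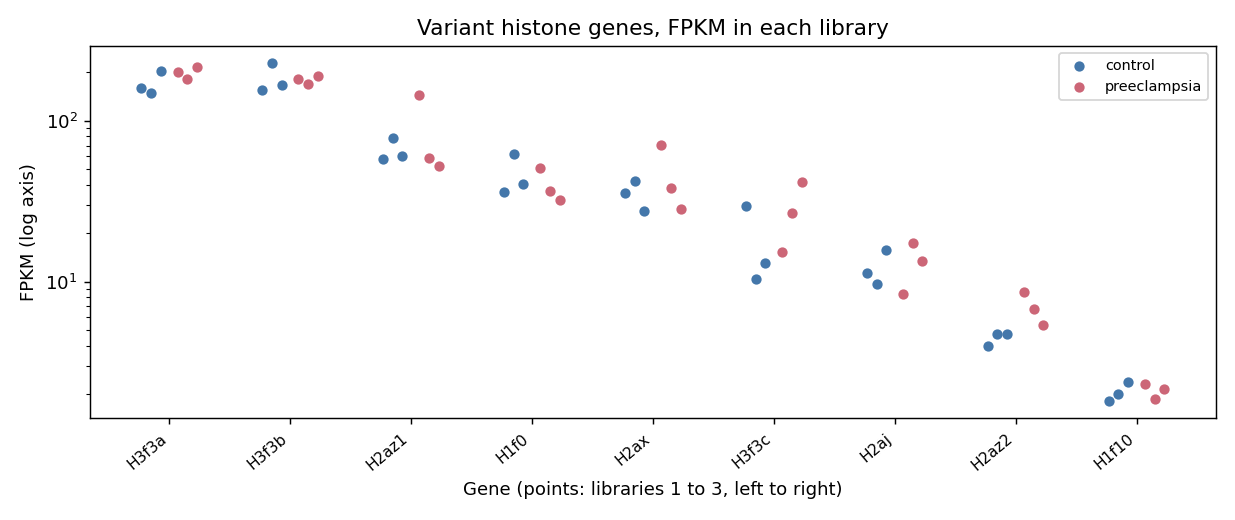
FPKM in each library (points, log axis) of the 9 variant histone genes, with libraries 1 to 3 of each group from left to right. H2az1 reaches 144 FPKM and H2ax 70.1 FPKM in the first preeclampsia library alone, and H2az2 has all preeclampsia points above the control points.

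The 3 lists of genes that act on histones or their mRNAs gave 0 calls by edgeR and 0 by DESeq2. Of all genes tested, edgeR called 0% and DESeq2 2.22%, so few calls could be looked for in lists of this size. Of 13 genes of histone mRNA processing, 6 were higher and 7 lower in value (median log2 fold change -0.03). In edgeR, 0 of them had an unadjusted p under 0.05, against 9.19% of all genes tested. Without the first preeclampsia library, 2 were higher and 11 lower. Slbp, chosen as the stem-loop protein and not by level, was at 9.53, 13.6 and 11.1 FPKM in control and 16.2, 6.77 and 7.35 FPKM in preeclampsia. It was highest in the first preeclampsia library and lowest in the other two of that group, with a log2 fold change of -0.17 (SE 0.34, adjusted p = 0.917). The most abundant of that list were Cstf2, Srrt and Upf1, with log2 fold changes of 0.21, 0.12 and 0.01.

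Of 9 genes of histone transcription, 6 were higher and 3 lower, with a median of 0.01, and without the first preeclampsia library 3 and 6, with a median of -0.33. Npat, the coactivator of replication-dependent histone genes in S phase, was at 18.2, 22.6 and 17.3 FPKM against 21.8, 12.9 and 17.0 FPKM. The groups overlapped, and the log2 fold change was -0.15 (SE 0.20, adjusted p = 0.869). E2f4 and Yy1 had log2 fold changes of 0.12 and 0.13. Of 20 chaperone and deposition genes, which hand histones to DNA, 15 were higher and 5 lower, with a median of 0.10. Without the first preeclampsia library it was 5 higher and 15 lower, with a median of -0.07. Ssrp1 and Supt16h, the subunits of the chaperone FACT, had log2 fold changes of 0.21 and 0.17, and Supt6h -0.05.

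Histone variants whose symbols lie outside the rule were also listed, and 3 of them were in the table. Macroh2a2, a macroH2A variant linked to silent chromatin, was at 11.7, 11.2 and 5.71 FPKM in control and 13.8, 18.8 and 23.3 FPKM in preeclampsia. The groups did not overlap, with a log2 fold change of 0.98 (SE 0.35, adjusted p = 0.478). Macroh2a1 had a log2 fold change of -0.02 (SE 0.14). Cenpa, the H3 variant of centromeres, was at 1.01, 1.03 and 0.52 FPKM against 2.42, 0.49 and 0.62 FPKM.

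Genes of the cell cycle were set beside the histones because replication-dependent histones are made in S phase. Of 25 genes of DNA replication and S phase, 23 were higher in value in preeclampsia (median log2 fold change 0.20), and all 23 genes of G2 and M phase were, with a median of 0.39. None of the 48 was called by edgeR or DESeq2, which called 0% and 2.22% of all genes tested. In edgeR, 0 of the 48 had an unadjusted p under 0.05, against 9.19% of all genes tested. That direction rested on single libraries. Without the first preeclampsia library, 0 of 25 and 0 of 23 were higher, with medians of -0.45 and -0.74, and without the third control library it was 9 of 25 and 18 of 23, with medians of -0.05 and 0.10. The S phase sum was 1053, 1483 and 694 FPKM in control and 2143, 624 and 922 FPKM in preeclampsia, so that 1 preeclampsia library stood high and the groups overlapped. That library, the first, also had the highest G2 and M phase sum (919 FPKM, against 180 to 451 FPKM in the other 5), the highest H2az1 and H2ax, and the lowest replication-dependent sum. Rrm2, a subunit of ribonucleotide reductase, and Cenpf, a kinetochore protein, were at 826 and 112 FPKM there, and their log2 fold changes were 0.22 (SE 0.56) and 0.39 (SE 0.65).

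Among the replication-dependent sums, the third control library was highest (298 FPKM) while its S phase sum was the lowest of the controls. The controls did not all run this way. The second control library had the highest S phase sum of the controls (1483 FPKM) with a histone sum of 284 FPKM. The first had the lowest histone sum of the controls (205 FPKM) with an S phase sum of 1053 FPKM. In preeclampsia, the first library had the lowest histone sum and the highest S phase sum. Without the first preeclampsia library, 22 of 26 replication-dependent genes were below 0, with a median of -0.75, and all 25 S phase genes were below 0 as well, with a median of -0.45. Without the third control library, it was 19 of 26, with a median of -0.46, and 16 of 25, with a median of -0.05. The part of the cell cycle in the histone differences was not tested.

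Markers of other cell types were read beside the histones. The epithelial markers summed to 1.70, 54.6 and 12.8 FPKM in control and 0.45, 1.56 and 1.43 FPKM in preeclampsia, without overlap, and Epcam and Cdh1 were at 0 or at most 0.10 FPKM in all 6 libraries. Krt8 and Krt18, the 2 of the 4 that were tested, both had an unadjusted p under 0.05 and were called lower by DESeq2. All 7 macrophage and blood markers had a log2 fold change above 0 (4 of 7 without the second preeclampsia library). In edgeR, 0 of the 7 had an unadjusted p under 0.05, against 9.19% of all genes tested. Their sums overlapped: 124, 95.6 and 18.2 FPKM in control and 21.0, 322 and 159 FPKM in preeclampsia. Endothelial markers summed to at most 3.22 FPKM, with Pecam1 and Cdh5 at most at 0.04 FPKM. The part of these cells in the histone values was not tested.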

How the data were processed

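RNA of 6 libraries, 3 per group, was enriched with oligo(dT), and adapters with unique molecular identifiers were attached, per the labels' protocols. Reads were handled with cutadapt 1.9, FastQC, HISAT2 2.2.1 and StringTie 2.1.6, per the submitters' processing notes. The authors deposited a raw count and an FPKM value per gene and library. The genome build, the use of strand and the use of the molecular identifiers in counting are not given in the sources used here. In the table, sequences are named as in mRatBN7.2. Low counts were often multiples of 4: 35.1% to 38.0% of counts from 1 to 15 in each library, where an even spread gives 20%, and the cause was not tested.

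Counts were tested with edgeR 4.0.16 (filterByExpr, TMM scaling, quasi-likelihood test on group, Benjamini-Hochberg over 15776 genes, called at an adjusted p under 0.05). SE is the log2 fold change divided by the square root of F. FPKM served for levels and sums. The 605 genes without a count were left out. No 2 libraries agreed within sampling noise (chi-square over degrees of freedom of at least 131). The code was tested on simulated data. Alternatives were DESeq2 1.42.0, limma 3.58.1 on log2(FPKM + 1) or log2(FPKM + 0.1), relative log expression scaling, library totals, no filter, a replicate block and leaving out each library.

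Members named were those with an adjusted or unadjusted p under 0.05, the 12 most abundant of each class and the 4 untested members with the highest counts, and for each of 6 related lists the called genes or else the 3 most abundant. A few members outside this rule were named after their values were seen. The members, lists and rules were chosen with earlier results of these data known.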

Additional observations from a re-analysis of the deposited data

How the results depend on the processing

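The number of genes called over all genes was 0 by edgeR, 350 by DESeq2 and 1 by limma on log2(FPKM + 1) without a filter, and 0 to 2 when each library was left out (1 without control 3, 2 without preeclampsia 1). Members called were 0 by edgeR and 4 by DESeq2, which gave no adjusted p for 961 genes, 7 of them members. The median log2 fold change of replication-dependent members was -0.56, and -0.16 with limma without a filter, -1.16 at a mean count of at least 50, and -0.82 to -0.46 when each library was left out, with -0.82 without control 1. For the variants it was 0.24, and 0.0071 to 0.32 when each library was left out, lowest without preeclampsia 1. The difference between the medians was -0.80, and -0.39 with limma without a filter, -1.40 at a mean count of at least 50, and -1.05 to -0.63 when each library was left out. Between 19 and 23 of 26 replication-dependent genes were below 0 with each library left out, 19 without control 3, and 6 to 9 had an unadjusted p under 0.05 in that direction. The cause of these shifts was not tested. With the replicate number as a block, 0 genes and 0 members were called and the medians were -0.61 and 0.24. Same-numbered libraries deviated with correlations of 0.048, 0.041 and 0.010, and differently numbered ones with -0.08 to 0.035. Such correlations cannot show whether the numbers pair the libraries, and the labels do not say. Low counts limit the precision of most replication-dependent genes.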

Other observations

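Dividing a count by its FPKM, scaled by library depth, gives the length that the authors' processing used for a gene. For H1f0, H1f2 and H2ax it was 1.02 times the span that the table gives. For 2 tested replication-dependent genes it was much longer than the span: 2644 against 525 bases (5.04 times) for Hist2h2aa3 and 3313 against 391 bases (8.47 times) for Hist1h2ao. The FPKM of these 2 genes is then low for their counts, which were 238, 338 and 461 in control and 91, 174 and 138 in preeclampsia for Hist2h2aa3, so their place in the order of levels is uncertain. The edgeR values use counts and not the length. Whether the counts of these 2 genes include reads from outside the span was not tested.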
